A study of Mus musculus with 12 samples.

Results

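Polysialic acid is a long chain of sialic acids that sits almost wholly on the neural cell adhesion molecule NCAM, and the modified form is called PSA-NCAM. The Golgi enzymes ST8SIA2 and ST8SIA4 build the chain, and in the developing brain it weakens adhesion and marks migrating precursors and young neurons. Their relatives in the ST8SIA family put shorter runs of sialic acid on gangliosides or glycoproteins. The 8 genes described here are Ncam1 and Ncam2, which encode the NCAM proteins, and St8sia1 to St8sia6, which encode the ST8SIA branch of the sialyltransferases. They were chosen by name, as the genes of the non-control array probes that carry these symbols. There are 12 such probes of 39429 on the array, and they stand for 8 of the 22321 genes tested between groups. All 12 probes passed the filter on dim signal, and 2 genes, Ncam1 and Ncam2, had 3 probes each.

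The starting cells were an Actin-eGFP line of C57BL/6 mouse embryonic stem cells (mESC). Cells grown from it were compared after 2 steps of a neural differentiation protocol, with and without magnetic enrichment for cells that bind an antibody to PSA-NCAM. The step 5 enriched and step 5 control cells had been differentiated for 7 days with 200 µM ascorbic acid and no bFGF, and the step 4 enriched and step 4 control cells were neural precursors grown for 5 days with bFGF at 10 ng/ml. Control cells had no enrichment, dead cells were removed before the enrichment, and the labels do not settle whether the step 5 enriched cells were sorted before or after the 7 days. Each group had 3 biological replicates, so the study had 12 arrays. Every array set the RNA of 1 sample, labelled with Cy5, against mESC RNA labelled with Cy3, so a value of 0 on the log2 scale is the level of mESC.

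The probes that carry the results are shown by their first 30 bases, 5′ to 3′, in lower case, with their positions in mm9. They are the 3 probes of Ncam1, whose values differed, and the probes of the 3 sialyltransferase genes that passed the test in both enrichment comparisons. The brightest Ncam1 probe, A_51_P380309, lies at chr9:49310320-49310379 on the minus strand and is listed for transcript variants 3 and 1. Probe A_55_P2050602, at chr9:49323381-49323440, is listed for variant 2 and lies 13061 bases upstream of it. Probe A_55_P2028942, at chr9:49351182-49351241, is listed for variants 2, 1 and 3 and lies a further 27801 bases upstream. The files do not say which NCAM protein form each variant encodes. The St8sia1 probe is at chr6:142770079-142770138, the St8sia2 probe at chr7:81084412-81084471 and the St8sia4 probe at chr1:97484331-97484390, each on the minus strand.
Ncam1 A_51_P380309: actttttactgagtgaaacatcaacaccac
Ncam1 A_55_P2050602: ctgtgtattagtacagtccgtacaccatgt
Ncam1 A_55_P2028942: tggaaggcattgtcaccatcatgggcctga
St8sia1 A_52_P108850: cagtttctctacctcccttccttggagaat
St8sia2 A_51_P260578: taagatctcctgacccacagaaatgtgccc
St8sia4 A_51_P236267: aaggaaggatgaagcttactctgtaggttc

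The genes of both polysialyltransferases were higher in enriched cells at both steps, so the 250 bases before their gene starts are shown beside each other. They come from RefSeq on GRCm38.p6, at chr7:74013683-74013932 for St8sia2 and chr1:95667595-95667844 for St8sia4, both on the minus strand. Capitals mark matches on either strand to GGGCGG (a GC box) and CCAAT.
St8sia2: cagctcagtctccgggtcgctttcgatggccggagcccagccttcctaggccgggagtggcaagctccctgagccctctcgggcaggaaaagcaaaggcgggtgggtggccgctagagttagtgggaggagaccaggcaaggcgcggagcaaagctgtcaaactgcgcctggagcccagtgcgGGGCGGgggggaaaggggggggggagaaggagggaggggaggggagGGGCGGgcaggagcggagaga
St8sia4: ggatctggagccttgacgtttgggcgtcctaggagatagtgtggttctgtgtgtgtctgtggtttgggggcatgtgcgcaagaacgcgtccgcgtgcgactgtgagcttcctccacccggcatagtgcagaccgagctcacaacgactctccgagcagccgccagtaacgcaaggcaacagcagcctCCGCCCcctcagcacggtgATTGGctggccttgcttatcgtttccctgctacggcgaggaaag
St8sia2 had 2 matches to GGGCGG and none to CCAAT, and St8sia4 had 1 match to each. Windows were at hand for 5 of the 8 genes. GGGCGG was also found before St8sia1 and Ncam2 and not before St8sia6, and CCAAT also before St8sia1. Of all 32851 windows of this length, 32.7% held GGGCGG and 33.8% held CCAAT, so these letters are common. None of the 5 windows held TATAAA, which 12.4% of all windows did, CAGCTG, which 13% did, or CAGATG, which 14.4% did. All motifs were searched on both strands, and no matches overlapped. The St8sia2 window was 68.8% G or C and the St8sia4 window 60.4%, against a median of 52.4% over all windows. Of all windows, 11% were at or above the St8sia2 value and 27% at or above the St8sia4 value.

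Over the whole array, the log2 ratios of arrays of 1 group correlated at 0.940 to 0.962 for step 5 enriched, 0.662 to 0.918 for step 5 control, 0.897 to 0.963 for step 4 enriched and 0.736 to 0.850 for step 4 control cells, as a description across genes. Each replicate number is a slide that held 1 array of every group, and slide 2 differed from slides 1 and 3 in scan day and in the version of the scanner software. Markers of pluripotent cells, by the median of 10 genes, lay between -4.92 and -3.06 in step 5 enriched, between -0.91 and -0.77 in step 5 control, between -5.01 and -3.82 in step 4 enriched and between -0.98 and -0.68 in step 4 control cells. Of these 10 markers, 6 were lower than mESC by the test in the control cells of each step. Of all genes 19.0% were lower in step 5 control and 17.4% in step 4 control cells. The median of 10 neural stem cell markers was 1.96 to 2.54 in step 5 enriched, 0.30 to 1.24 in step 5 control, 3.23 to 3.43 in step 4 enriched and 1.03 to 2.31 in step 4 control cells. The median difference of all genes was within 0.05 of 0 in each comparison. With median centring in place of loess it was 0.13 at both steps for enriched over control cells. The split of all genes called then shifted to 5957 higher and 3057 lower at step 5, against 4528 and 4500 with loess, and to 4782 higher and 2577 lower at step 4, against 3340 and 3610. Scaling the arrays to a common spread gave 1177 higher and 2105 lower at step 5 and 611 higher and 1616 lower at step 4.

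The first comparison was of enriched and control cells at step 5. The enrichment was for the antigen that Ncam1, St8sia2 and St8sia4 make, and the control cells had no enrichment. Of the 8 genes, 7 rose and none fell, and St8sia6 did not pass the test. Over all 22321 genes 20.3% rose and 20.2% fell. All 8 were higher in enriched cells on all 3 slides, though the share of all genes that were was not counted. The median of the 8 log2 differences was 1.47, against -0.01 over all genes. Ncam2 and St8sia6 passed the filter on dim signal only through enriched cells. Their part in these counts thus rests on the groups where they were brightest. Values are from limma on log2 ratios, with p-values adjusted over all genes by Benjamini and Hochberg.

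Ncam1, the carrier of polysialic acid, had log2 ratios of 4.03, 4.15 and 4.19 in step 5 enriched cells, against 2.88, 1.62 and 2.86 in step 5 control cells. The groups did not overlap, and the enriched arrays lay closer together than the control arrays, of which slide 2 was the lowest. Ncam1 rose 3.18-fold (log2 1.67, SE 0.43, adjusted p = 0.0112). Ncam2 encodes a related adhesion molecule of neurons that is not known as a carrier of the chain, and it had ratios of 1.14, 0.93 and 1.52 in enriched cells, against 0.12, 0.06 and 0.31 in control cells. It was well above background on 1 of 3 control arrays, so the other 2 give only a bound on its control level. Ncam2 rose by 1.03 (SE 0.19, adjusted p = 0.00195), and by 3.56 with the scanner software's own log ratio, which adds no offset to dim signals.

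St8sia4, whose enzyme builds polysialic acid from the embryo into the adult brain, had ratios of 4.11, 4.04 and 3.99 in step 5 enriched cells, against 2.10, 0.33 and 1.63 in step 5 control cells. It rose 6.45-fold (log2 2.69, SE 0.63, adjusted p = 0.00714). The mESC channel was well above background on 2 of 3 enriched and 1 of 3 control arrays, so the size of this fold is uncertain. St8sia2, the polysialyltransferase that prevails in the embryo, had ratios of 1.64, 1.95 and 1.69 in enriched cells, against 0.88, -0.19 and 0.74 in control cells. It rose 2.43-fold (log2 1.28, SE 0.27, adjusted p = 0.00429). For both genes every enriched array lay above every control array, and the slide 2 control array was the lowest of the 3. For St8sia2 that array had a mean log2 intensity over both channels of 8.59, against 7.11 and 6.92 on the other control arrays. Its ratio of -0.19 is therefore uncertain, and without slide 2 the difference of St8sia2 was 0.85 (limma, adjusted p = 0.0138).

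Of the other enzymes, St8sia5 and St8sia1 act on gangliosides, sialic acid lipids of the cell surface, and St8sia3 adds short chains in brain. St8sia5 had ratios of 0.44, 2.29 and 2.81 in step 5 enriched cells, against -0.75, -0.64 and -0.15 in step 5 control cells. It rose 5.13-fold (log2 2.36, SE 0.50, adjusted p = 0.0041), with the slide 1 enriched array well below the others. St8sia3 had ratios of 3.59, 3.18 and 3.59 in enriched cells, against 1.95, 1.38 and 1.24 in control cells, and rose 3.81-fold (log2 1.93, SE 0.37, adjusted p = 0.0026). For St8sia3 the mESC channel was well above background on all 3 enriched arrays and on no control array. Its control ratios are therefore uncertain. St8sia1 rose 2.34-fold (log2 1.23, SE 0.30, adjusted p = 0.00865), with ratios of 0.89 to 1.88 in enriched cells and 0.03 to 0.36 in control cells. St8sia6, whose enzyme prefers sugar chains bound to serine or threonine, differed by 0.33 (95% interval -0.25 to 0.90, adjusted p = 0.348), and its groups overlapped.

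Without slide 2, 4 of the 8 genes passed at step 5, and St8sia1 (log2 0.91, adjusted p = 0.0626), St8sia4 (2.18, adjusted p = 0.0658) and St8sia5 (2.08, adjusted p = 0.0859) did not. That fit had fewer arrays, and its calls over all genes are not given here. The lost calls therefore cannot be read as particular to these genes. With the arrays scaled to a common spread, 3 of 8 passed, and the difference of Ncam1 was 0.16. The 3 were Ncam2, St8sia5 and St8sia6, of which St8sia6 gained its call only then (0.88, limma, adjusted p = 0.0436).

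**Figure D1:**
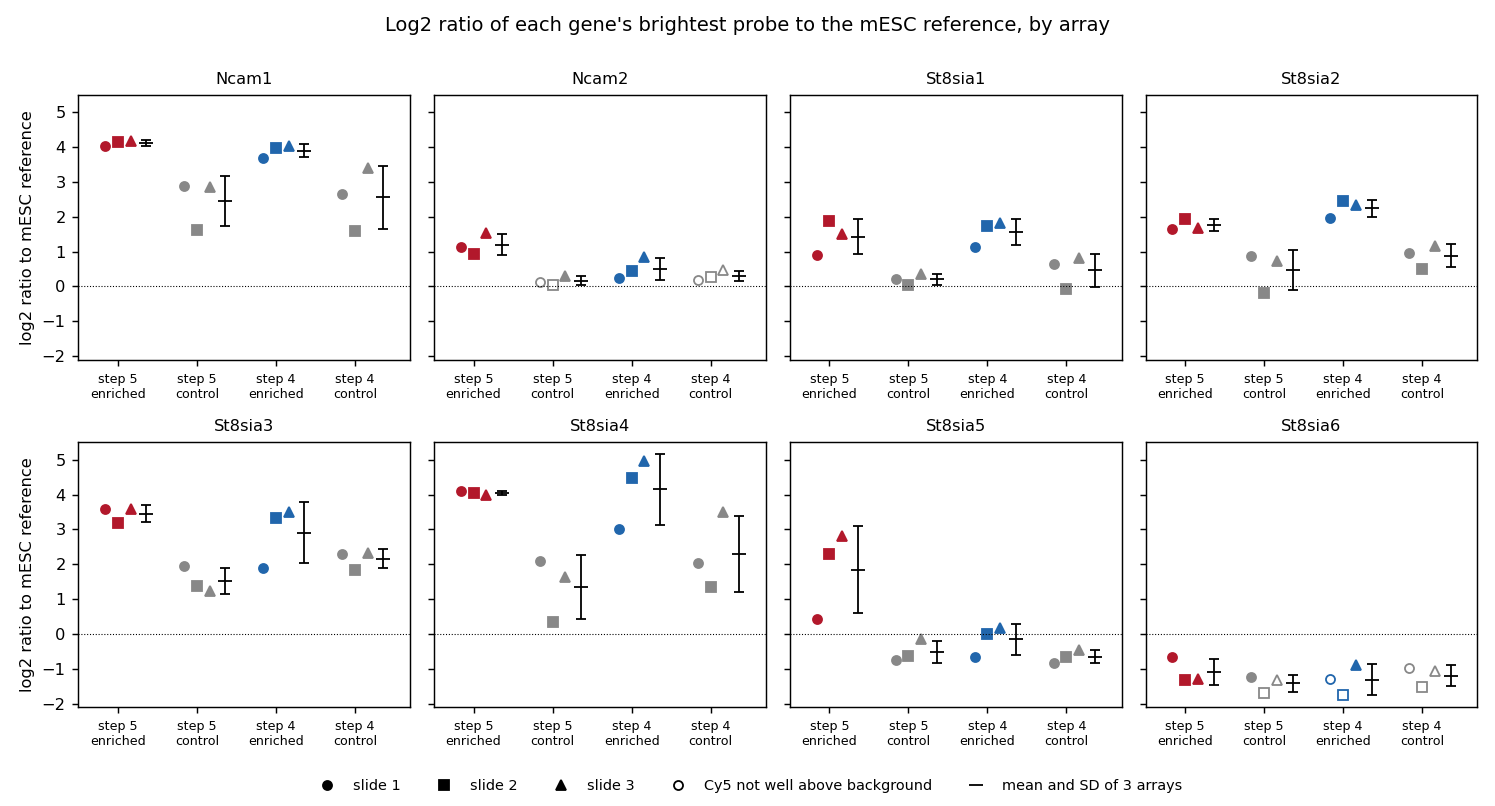
Log2 ratio to the mESC reference (vertical axis) of the brightest probe of each gene on every array, by group, with the mean and SD of 3 arrays beside the points and open symbols where Cy5 was not well above background. Step 5 enriched arrays of Ncam1 lie between 4.03 and 4.19, above control arrays between 1.62 and 2.88, and St8sia6 lies below 0 on every array.

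The same comparison at step 4 gave 4 of 8 genes that rose and none that fell, where 15.0% of all genes rose and 16.2% fell. They were Ncam1, St8sia1, St8sia2 and St8sia4. The median of the 8 log2 differences was 0.93, against 0.01 over all genes. Of the 8 genes, 6 were higher in enriched cells on all 3 slides, and the share of all genes that were was again not counted.

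Ncam1 had log2 ratios of 3.69, 3.98 and 4.02 in step 4 enriched cells, against 2.66, 1.59 and 3.41 in step 4 control cells. Every enriched array lay above every control array, and Ncam1 rose by 1.34 (SE 0.43, adjusted p = 0.0372). St8sia2 had ratios of 1.98, 2.45 and 2.33 in enriched cells, against 0.96, 0.51 and 1.16 in control cells, and rose by 1.37 (SE 0.27, adjusted p = 0.00473). St8sia4 had ratios of 3.02, 4.47 and 4.97 in enriched cells, against 2.05, 1.35 and 3.49 in control cells. These 2 groups overlapped, since the slide 1 enriched array lay below the slide 3 control array, but St8sia4 was higher in enriched cells on each slide, by 0.97, 3.11 and 1.48, and rose by 1.86 (SE 0.63, adjusted p = 0.0467). St8sia1, which starts the branch of gangliosides with paired sialic acids, had ratios of 1.13, 1.73 and 1.82 in enriched cells, against 0.64, -0.09 and 0.83 in control cells, and rose 2.14-fold (log2 SE 0.30, adjusted p = 0.0195).

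In each of these 4 genes slide 2 had the largest difference and the lowest control array. Without slide 2, St8sia2 alone passed at step 4 (log2 1.09, adjusted p = 0.0106), while Ncam1 was at 0.82 (adjusted p = 0.0881), St8sia1 at 0.74 (adjusted p = 0.144) and St8sia4 at 1.23 (adjusted p = 0.293). Here too the calls over all genes in the smaller fit are not given, so the lost calls cannot be read as particular to these genes. Without the single array of step 4 control replicate 2, Ncam1 was at 0.86 (adjusted p = 0.125), St8sia1 at 0.83 (adjusted p = 0.0738) and St8sia4 at 1.38 (adjusted p = 0.167). Ncam1 lost its call without any of 7 single arrays, St8sia4 without any of 8 and St8sia1 without any of 3, while St8sia2 kept its call without any single array.

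The genes that did not pass at step 4 were Ncam2, St8sia3, St8sia5 and St8sia6. St8sia3 differed by 0.75 (SE 0.37, adjusted p = 0.149), with ratios of 1.91, 3.33 and 3.5 in enriched cells and 2.30, 1.84 and 2.33 in control cells. The slide 1 enriched array was the low value, and without it the difference was 1.26 (adjusted p = 0.00534). Ncam2 differed by 0.21 (95% interval -0.21 to 0.63), with none of 3 control arrays and all 3 enriched arrays well above background. With the scanner's own log ratio Ncam2 differed by 1.88 (adjusted p = 0.048), while St8sia2 was at 0.90 (adjusted p = 0.283). St8sia5 differed by 0.50 (SE 0.50) and St8sia6 by -0.12 (SE 0.26).

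**Figure D2:**
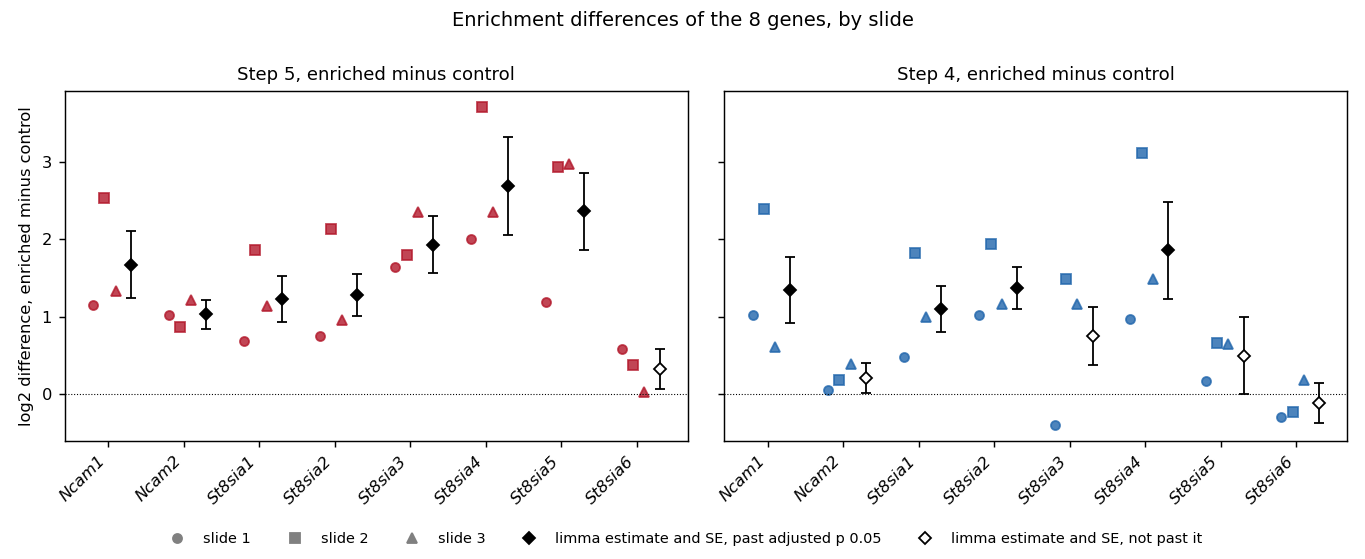
Log2 difference between the enriched and the control array of each slide (coloured symbols) with the limma estimate and its SE (diamonds, filled where adjusted p was under 0.05), at step 5 on the left and step 4 on the right. At step 5 all 8 genes lie above 0 on all 3 slides, and at step 4 St8sia3 and St8sia6 each fall on both sides of 0.

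Enriched cells were then compared between the steps. By the brightest probes, St8sia5 alone of the 8 genes rose at step 5 over step 4, against 3.96% of all genes. It had log2 ratios of 0.44, 2.29 and 2.81 in step 5 enriched cells, against -0.66, 0.01 and 0.18 in step 4 enriched cells, without overlap, and rose 4.02-fold (log2 2.01, SE 0.50, adjusted p = 0.0405). St8sia5 lost this call when any of 10 arrays was omitted, with log2 differences of 1.52 to 2.17 and adjusted p of 0.0537 to 0.13 over those 10. Ncam2 had 1.14, 0.93 and 1.52 against 0.23, 0.45 and 0.86, again without overlap, and differed by 0.68 (SE 0.19, adjusted p = 0.0589), which passed with the replicate number as a block (adjusted p = 0.0108). St8sia2 was lower on all 3 slides but did not pass (-0.49, SE 0.27, adjusted p = 0.329). St8sia4 differed by -0.11 (95% interval -1.51 to 1.29) and Ncam1, by its brightest probe, by 0.22 (95% interval -0.73 to 1.18), with all 3 step 5 arrays just above the step 4 arrays.

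The other Ncam1 probes did not show the same pattern as the brightest one. Probe A_55_P2028942, listed for all 3 variants, had log2 ratios of 2.28, 2.27 and 2.78 in step 5 enriched cells, against 1.53, 0.97 and 1.31 in step 4 enriched cells, and rose by 1.17 (SE 0.20, adjusted p = 0.00853 in a limma fit over 28223 probes). Probe A_55_P2050602, listed for variant 2, had 2.22, 2.31 and 3.08 against 0.78, 0.56 and 0.75 and rose by 1.84 (SE 0.27, adjusted p = 0.00512). In both probes all step 5 arrays lay above all step 4 arrays, while the brightest probe differed by 0.22. For the variant 2 probe the mESC channel was well above background on all 3 step 5 enriched arrays and on none of the step 4 enriched arrays, so its step 4 ratios are uncertain. Within an array, the ratio of the probe of all 3 variants minus that of the brightest probe was -1.68 ± 0.25 in step 5 enriched cells and -2.63 ± 0.43 in step 4 enriched cells (SD, n = 3 each). The 2 groups did not overlap, and the difference of 0.95 had an exact two-sided permutation p of 0.1, the smallest that 3 against 3 arrays can give.

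Against control cells, all 3 Ncam1 probes rose at step 5. The variant 2 probe rose by 2.02 (SE 0.27, adjusted p = 0.000381), with ratios of 2.22 to 3.08 in enriched cells and -0.04 to 0.99 in control cells, where 2 of 3 arrays were well above background. The probe of all 3 variants rose by 1.68 (SE 0.20, adjusted p = 0.000196). At step 4 neither passed, with 0.52 (SE 0.27, adjusted p = 0.17) for the variant 2 probe and 0.48 (SE 0.20, adjusted p = 0.0839) for the probe of all 3 variants. Averaging the probes of a gene gave 3 members higher at step 5 than at step 4 in enriched cells, with Ncam1 at 1.08 (adjusted p = 0.0118), Ncam2 at 0.57 (adjusted p = 0.027) and St8sia5 at 2.01. Of the 3 Ncam2 probes, A_52_P209119 and A_52_P610188 rose at step 5 over control cells, by 1.03 and 0.87 (adjusted p = 0.0019 and 0.00317), and A_52_P184368 differed by 0.44 (adjusted p = 0.0572). Neither A_52_P610188 nor A_52_P184368 was well above background on any step 5 control array.

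**Figure D3:**
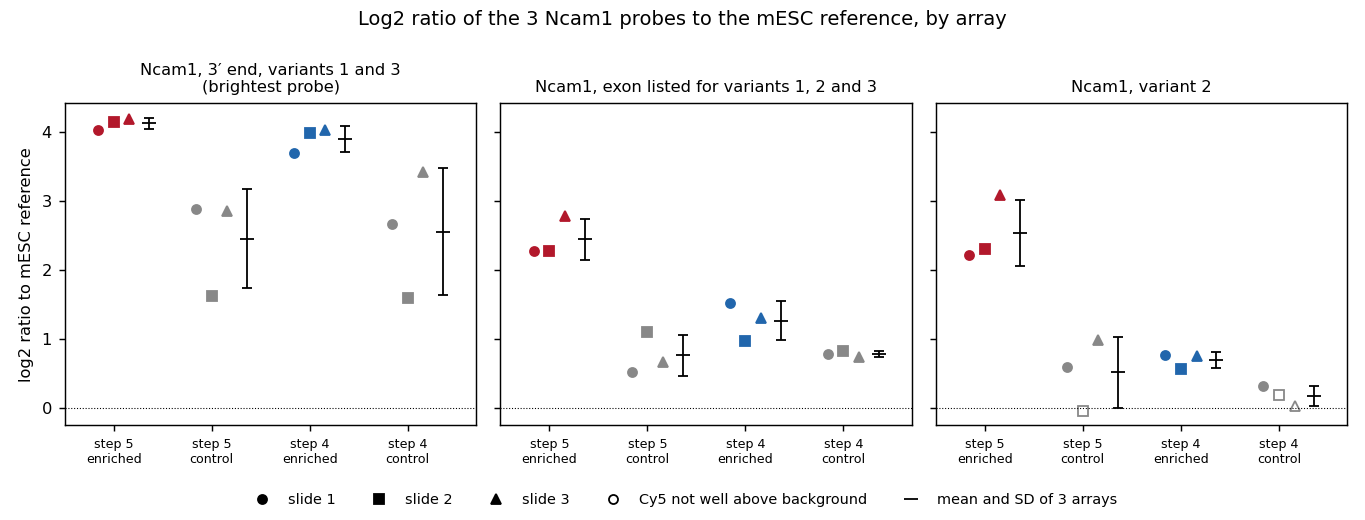
Log2 ratio to the mESC reference (vertical axis) of the 3 Ncam1 probes on every array, by group, with the mean and SD of 3 arrays and open symbols where Cy5 was not well above background. The brightest probe differs by 0.22 between the enriched groups, with 4.03 to 4.19 at step 5 and 3.69 to 4.02 at step 4, while the other probes average 2.44 and 2.54 at step 5 and 1.27 and 0.70 at step 4.

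In control cells no gene of the array passed between step 5 and step 4 (0% of 22321 by limma, 1917 at an unadjusted p under 0.05, and 1 with the replicate number as a block). None of the 8 genes had an unadjusted p under 0.05, and their log2 differences ran from -0.94 for St8sia4 (95% interval -2.34 to 0.46) to 0.14 for St8sia5. The difference between the enrichment effects of the steps was also tested, and 0% of the genes passed (1574 at an unadjusted p under 0.05, 0 with the block). Ncam2 (0.82, SE 0.27, adjusted p = 0.503), St8sia3 (1.18, SE 0.53, adjusted p = 0.703) and St8sia5 (1.87, SE 0.70, adjusted p = 0.607) were the 3 members with an unadjusted p under 0.05. So none of the 8 genes was shown to be enriched more at step 5 than at step 4, although 7 passed at step 5 and 4 at step 4.

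Each group was also set against mESC, a test that leaves out the spread of the reference itself. In step 5 enriched cells 7 of the 8 genes were higher and 1 was lower, where 38.4% of genes were higher and 33.0% lower. In step 5 control cells 3 were higher and 1 lower (25.7% and 19.0% of all genes). In step 4 enriched cells 6 were higher and 1 lower (35.4% and 31.5%), and in step 4 control cells 4 were higher and 1 lower (21.4% and 17.4%). The lower gene was St8sia6 each time. It averaged -1.09 ± 0.37 in step 5 enriched, -1.42 ± 0.24 in step 5 control, -1.31 ± 0.44 in step 4 enriched and -1.20 ± 0.29 in step 4 control cells (SD, n = 3 each). Cy5 was well above background on 3, 1, 1 and 0 of the 3 arrays in that order of groups, so the step 4 control cells were at least 2.21-fold lower than mESC. Neighbours in its order of levels did not differ beyond their spread.

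Ncam1 averaged 4.12 ± 0.08 in step 5 enriched, 2.45 ± 0.72 in step 5 control, 3.9 ± 0.18 in step 4 enriched and 2.56 ± 0.92 in step 4 control cells. The 2 enriched groups lay 0.22 apart and the 2 control groups 0.10 apart, and the gap between enriched and control levels was larger than the SD of either group. St8sia4 averaged 4.04 ± 0.06 in step 5 enriched, 1.35 ± 0.92 in step 5 control, 4.15 ± 1.01 in step 4 enriched and 2.30 ± 1.09 in step 4 control cells. The reference was well above background for St8sia4 on 4 of the 12 arrays, and on none of the 3 step 4 control arrays. The mean of 4.91-fold above mESC there was thus measured against a dim reference and is uncertain. St8sia2 had its highest mean in step 4 enriched cells, at 2.25 ± 0.24, above step 5 enriched cells at 1.76 ± 0.17, without overlap. By the test St8sia5 was above mESC in step 5 enriched cells only (1.85, adjusted p = 0.000703), with -0.51 in step 5 control, -0.16 in step 4 enriched and -0.65 in step 4 control cells. Ncam2 averaged 2.29-fold above mESC in step 5 enriched cells and 1.43-fold in step 4 enriched cells. The reference was not well above background on any array, so these folds are uncertain. The call of Ncam2 in step 4 enriched cells was lost without replicate 3 (0.34, adjusted p = 0.0633), and that of St8sia4 in step 5 control cells without replicate 1 (adjusted p = 0.181) or 3 (adjusted p = 0.135). St8sia2 gained a call in step 5 control cells without replicate 2 (0.81, adjusted p = 0.00345).

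Likeness of pattern was measured as Pearson's r over the 12 arrays, among 16841 named genes. These arrays share the mESC reference and fall into enriched and control groups that many genes follow, so r is a description. Nearest to St8sia4 were Pak3, Map1b, Plppr3, Sbk1 and Brsk2 (0.989 to 0.986), and Map1b encodes a microtubule protein of growing axons. Nearest to Ncam1 were Ankrd13b, Csdc2, Ndn, Kcnd3 and Nsg1 (0.987 to 0.984). Nearest to St8sia2 were Zfp629, Rgmb, Rhpn1, Cnr1 and Dchs1 (0.988 to 0.979). St8sia6 had no close match, with Stac highest at 0.878.

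The wider pathway was followed with 7 lists of 66 genes, all of them tested. Their counts are to be read against all genes, of which 20.3% rose and 20.2% fell at step 5 and 15.0% rose and 16.2% fell at step 4. Of the 8 genes of sialic acid supply, none rose and 1 fell at step 5 in enriched against control cells, and 1 rose and 1 fell at step 4. Nans, which makes the sialic acid precursor, fell by 1.04 at step 5 (SE 0.12, adjusted p = 0.00021) and by 0.69 at step 4 (SE 0.12, adjusted p = 0.00271). Npl, a lyase that breaks sialic acid down, rose by 0.77 at step 4 (SE 0.26, adjusted p = 0.0459). Gne, which starts the pathway, was at 0.11 and 0.09, and Cmas, which activates sialic acid, at 0.06 at both steps, with adjusted p of 0.7 and above. The median of the list was -0.01 at step 5 and 0.16 at step 4.

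Of 13 other sialyltransferases, 6 rose and 2 fell at step 5, and 2 rose and 2 fell at step 4, where step 4 is close to the 15.0% and 16.2% of all genes. St6galnac5, a brain enzyme of ganglioside synthesis, rose by 1.84 at step 5 (SE 0.45, adjusted p = 0.00869). St6galnac2, which acts on sugar chains of mucin type, fell by 1.87 at step 5 (adjusted p = 0.000477) and by 0.99 at step 4 (adjusted p = 0.0168). St3gal1 and St3gal2 rose at both steps, by 0.70 and 0.75 at step 5 and by 0.82 and 0.64 at step 4. Of 6 further genes of ganglioside synthesis 1 rose at step 5, B4galnt1 (1.22, SE 0.29, adjusted p = 0.00731), and none passed at step 4. The 17 genes that assemble N-glycans, the sugar chains on which NCAM carries polysialic acid, had 7 that rose and 2 that fell at step 5 (20.3% and 20.2% of all genes) and 6 that rose and 1 that fell at step 4 (15.0% and 16.2%). Mgat3, which adds the bisecting sugar, rose by 1.57 at step 5 and 1.18 at step 4 (adjusted p = 0.00569 and 0.0289), and B4galt2, a galactosyltransferase, by 1.33 and 0.93 (adjusted p = 0.00165 and 0.014).

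Of 4 sialidases, which remove sialic acid, Neu4 rose by 0.48 at step 5 (SE 0.10, adjusted p = 0.00452) and Neu3 fell by 1.12 (SE 0.35, adjusted p = 0.0258), and none passed at step 4. Other proteins known to carry polysialic acid had 3 of 4 genes that rose at step 5 and 1 of 4 at step 4, against 20.3% and 15.0% of all genes. The guidance receptor Nrp2 rose by 1.74 at step 5 (SE 0.40, adjusted p = 0.00636), and the adhesion molecule Cadm1 rose by 0.85 over control cells at step 5 and by 0.83 in step 5 over step 4 enriched cells (adjusted p = 0.00119 and 0.00931). Glg1 rose by 0.51 at step 5 and 0.53 at step 4, and Ccr7, a chemokine receptor of immune cells, did not pass.

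NCAM partners and signalling genes had 9 of 14 that rose and 1 that fell at step 5, and 8 that rose and none that fell at step 4, with medians of 1.16 and 0.96. Of all genes 20.3% rose at step 5 and 15.0% at step 4. Fyn, a kinase downstream of NCAM, rose by 2.14 at step 5 and 1.39 at step 4 (adjusted p = 0.00111 and 0.0138). Ncan, a matrix proteoglycan that binds NCAM, rose by 2.26 at step 5 (SE 0.74, adjusted p = 0.0331). Fgfr1, a growth factor receptor that NCAM engages, rose by 1.13 at step 5 and 1.40 at step 4, and Ptpra, a phosphatase that acts with it, by 1.19 and 1.18. Cntn2 fell by 0.43 at step 5 (adjusted p = 0.0166). Between steps in enriched cells Prnp, the prion protein gene, rose by 1.35 and Sptbn1, a spectrin gene, by 0.99 (adjusted p = 0.0193 and 0.00845).

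**Figure D4:**
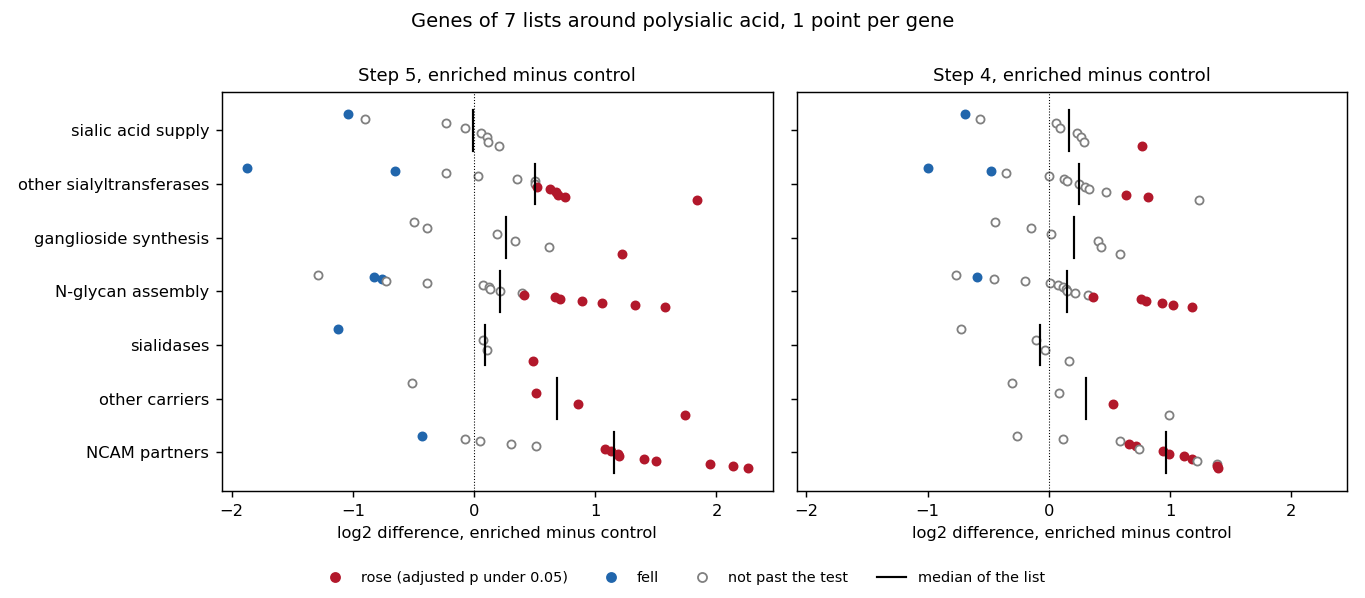
Log2 difference of enriched minus control cells (horizontal axis) for each gene of 7 lists, at step 5 on the left and step 4 on the right, with the median of each list as a bar. The NCAM partners have medians of 1.16 and 0.96, and the genes of sialic acid supply have medians of -0.01 and 0.16.

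Marker lists of several cell types were counted in the same comparisons, where 20.3% of all genes rose at step 5 and 15.0% at step 4. Of 10 neuronal markers 8 rose at step 5 (median 2.52) and 2 at step 4 (median 1.73), and their median ratio to mESC ranged from 2.21 to 2.56 in step 5 enriched, 0.53 to 1.27 in step 5 control, 0.91 to 3.24 in step 4 enriched and 0.51 to 1.85 in step 4 control cells. The low step 4 enriched array was that of slide 1, where 7 of the 8 genes, all but St8sia6, also had their lowest step 4 enriched value. Of 10 neural stem cell markers 5 rose at step 5 and 4 at step 4. Of 7 astrocyte markers 5 rose at step 5 and 1 at step 4, and of 8 oligodendrocyte lineage markers 4 at step 5 and none at step 4. At step 4 the shares of neuronal and astrocyte markers that rose were near that of all genes. All 10 pluripotency markers fell at both steps, with medians of -3.36 and -3.58, where 20.2% of all genes fell at step 5 and 16.2% at step 4. Mesenchymal markers were high in every group, with median ratios of 6.11 to 6.56 in step 5 enriched, 3.51 to 6.43 in step 5 control, 4.29 to 4.58 in step 4 enriched and 2.26 to 3.53 in step 4 control cells, and their lowest control arrays were those of slide 2. Endoderm and epithelium markers, by the median of 7 genes, were highest on slide 2 in every group. In step 5 control cells they were at 4.45 there, against 0.92 and 1.97 on slides 1 and 3. In step 4 control cells they were at 3.84, against 0.65 and 1.52. In these bulk samples, fewer cells of a type and less RNA per cell cannot be told apart, and the part of these cell types in the differences of the 8 genes was not tested.

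**Figure D5:**
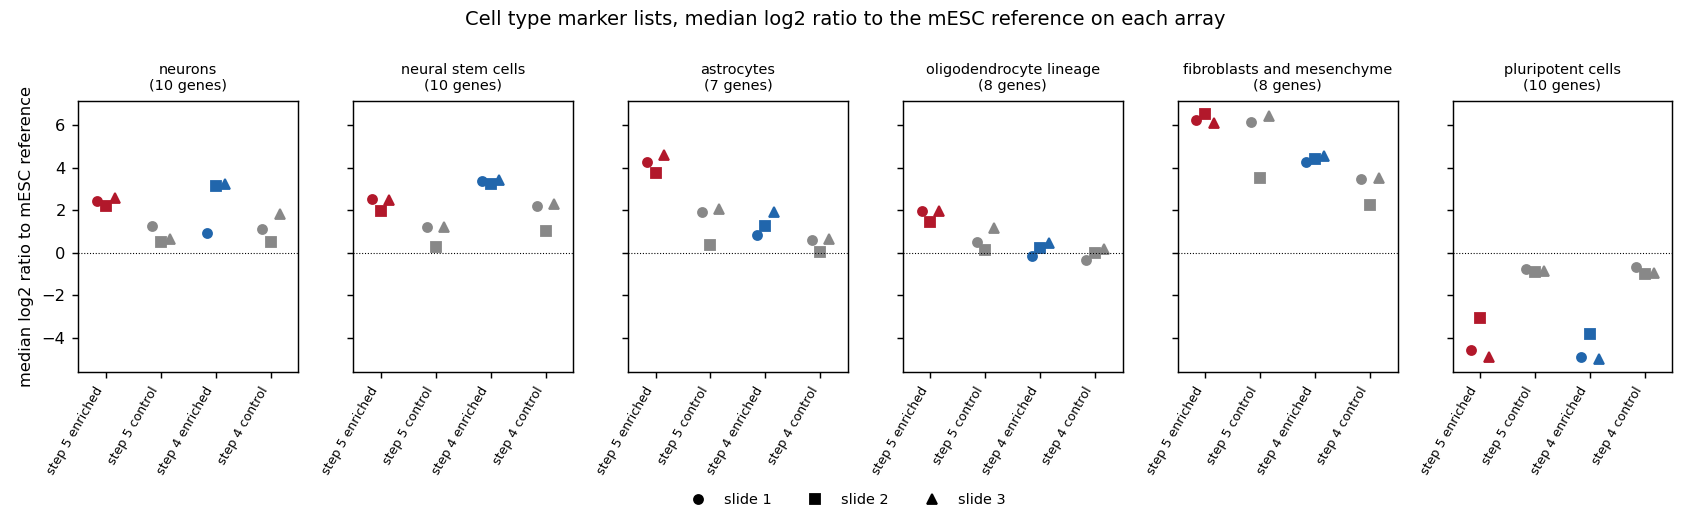
Median log2 ratio to the mESC reference (vertical axis) over the markers of 6 cell types on every array, by group. Pluripotency markers lie between -5.01 and -3.06 on the enriched arrays and between -0.98 and -0.68 on the control arrays, and neuronal markers of step 4 enriched cells span 0.91 to 3.24.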

How the data were processed

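The 12 two-colour arrays hold Cy5-labelled sample RNA and Cy3-labelled mESC RNA from 100 ng, with 0 dye swaps. Per the file headers, the scanner files give each spot's mean signal and local background as intensity, with positions on mm9, and a log10 ratio that the software had background-subtracted and dye-normalized. The deposited series-wide values are in log2, with no method stated in the sources used here, and equalled that ratio within 0.001 for 99.4 to 99.5% of probes, with column medians of 0.

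Intensities were corrected by normexp (offset 50), normalized by loess within arrays and turned to log2 ratios in R 4.3.3 with limma 3.58.1 and data.table (version 1.17.8). Control and outlier spots were left out. The offset pulls the ratios of dim probes toward 0. A probe was tested if its Cy5 signal was marked well above background on every array of at least 1 group (against mESC, also if Cy3 was on all 12), and the brightest probe stood for a gene. The St8sia6 probe and Ncam2 probes A_52_P184368 and A_52_P610188 met the Cy5 rule through step 5 enriched cells only. Ncam2 probe A_52_P209119 and Ncam1 probe A_55_P2050602 met it through the enriched groups only. No spot of the member probes was saturated. One lmFit and eBayes model on 4 group means gave two-sided tests, with Benjamini-Hochberg adjusted p under 0.05 as the threshold. SE values are those of this model, and folds are 2 to the power of the log2 difference. Bounds ("at least") were set against the dimmest probe well above background on each array, or the probe's own signal where that was higher. They were taken per channel after loess and Aquantile, and are open to dye bias without swaps.

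The labels name no pairing beyond replicate numbers, which are also slides. The deviations of same-numbered arrays from their group means correlated at 0.188 to 0.361 between enriched and control cells at step 5, 0.13 to 0.644 at step 4, 0.341 to 0.413 between steps in enriched and 0.463 to 0.747 in control cells, so the number was tried as a block.

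The members and lists were chosen with earlier results of these data known. Named list genes were up to 4 per list and comparison with the largest differences past the test and 1 direction on all slides, and all genes of lists of 4, except that Gne, Cmas and Cntn2 were named after their values were seen. The fit was tested on simulated data. Alternatives covered background, normalization, filter, probes, samples, block, prior, weights and arrays left out.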

Additional observations from a re-analysis of the deposited data

Results flagged for a closer look

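One result of the 8 genes stood out by its direction. By its brightest probe, A_52_P209119, Ncam2 was higher at step 5 than at step 4 on all 3 slides in enriched cells (0.91, 0.48 and 0.67). In control cells it was lower on all 3 slides (-0.05, -0.21 and -0.16), and these effects differed by 0.82 on the log2 scale. The test of this difference did not pass over all genes (limma, adjusted p = 0.503). In control cells this probe was well above background on 1 of 3 arrays at step 5 and 0 of 3 at step 4. The other Ncam2 probes, A_52_P184368 and A_52_P610188, were also higher at step 5 on all 3 slides in enriched cells. In control cells each was higher on some slides and lower on others, so they did not share the opposite direction. Neither was well above background on any control array.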

How the results depend on the processing

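The count of members past the test held within 1.5 times in 209 recomputations and moved in 33. Most of the matching counts over all genes are not given here. Of the single differences, 1782 kept direction and side of the threshold, 64 lost and 35 gained a call, 36 without a call changed sign and 1 reversed. At step 5 the count of 7 of 8 genes became 3 with arrays scaled to a common spread, where St8sia6 gained a call. It became 4 without slide 2, and stayed at 7 without any single array. At step 4 the count of 4 became 2 with normexp without an offset, the scanner's own log ratio, the deposited table and a fit of only the groups compared, 1 without slide 2, 0 with scaling, and 1 to 4 without single arrays. Ncam1 reversed there with scaling, at -0.031. Between steps in enriched cells the count of 1 became 0 with scaling, the scanner's own log ratio, the deposited table, no filter, only the groups compared and without slide 2, 2 with array weights, 3 with probes averaged, and 0 to 1 without single arrays. With the replicate block this count was 2, since Ncam2 passed (0.68, adjusted p = 0.0108), and the block ended no call of a member. Against mESC it added Ncam2 in step 4 control cells (adjusted p = 0.0149). Step 4 control cells against mESC had 8 members past the test with scaling, against 5. Probe A_52_P184368 of Ncam2, fitted on its own (chosen after seeing the data), was at -0.0044 in step 4 enriched cells against mESC. The causes were not tested. Aquantile leaves log ratios as they are, so it changed nothing by construction. With Cy5 required on all 12 arrays Ncam2 and St8sia6 dropped out. The difference of the enrichment effects needs all 4 groups, so it has no fit of only the groups compared. Signal over background limits Ncam2 and St8sia6, and a reference that was dim on some arrays limits St8sia2, St8sia3 and St8sia4. Having 3 arrays a group limits the precision of every value.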
